A study of Rattus norvegicus with 30 samples.

Results

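The 9 genes described here regulate apoptosis and cell cycle exit: Bax and Bak1, which open the outer mitochondrial membrane, their inhibitors Bcl2, Bcl2l1 (BCL-XL) and Bcl2l2 (BCL-W), the BH3-only gene Bbc3 (PUMA), the death receptor gene Fas, the initiator caspase gene Casp8, and Cdkn1a (p21), an inhibitor of cyclin-dependent kinases. They were chosen by name, as the rows whose Entrez Gene identifiers map to these symbols in the rat, and make up 9 of the 17322 genes listed. The identifiers are 24887 for Bax, 116502 for Bak1, 24224 for Bcl2, 24888 for Bcl2l1, 60434 for Bcl2l2, 317673 for Bbc3, 246097 for Fas, 64044 for Casp8 and 114851 for Cdkn1a. Expression was measured by sequencing of polyadenylated RNA in testes of Wistar Han rats at 6 ages of the first wave of spermatogenesis, at 8.5 and 14.5 days post partum (dpp), at 24.5 and 30.5 dpp, and at 36.5 and 53.5 dpp. It was also measured in explants of 8.5 dpp testes after 6 (D6), 16 (D16), 22 (D22) and 28 (D28) days of organotypic culture. Each testis was cut into 6 fragments, which were kept on agarose at the interface of gas and liquid, at 34 °C in αMEM with knockout serum replacement, retinol and vitamin E. Each group had 3 libraries, except 14.5 dpp with 2, because all values of the third, labelled as an outlier, are listed at 0. In vivo libraries came from different testes, whereas each cultured library pooled explants of several juvenile males, and the necrotic centre of the explants was cut away before RNA was extracted. The cultured values therefore leave out that tissue. Values are given in FPKM, that is, fragments per kilobase of transcript, relative to all mapped fragments, so that levels can be compared between genes, and replicates are listed in the order of their numbers. Differences between groups are on the log2(FPKM + 1) scale and were tested with limma. A difference is named as called where its p, after Benjamini-Hochberg adjustment over all genes tested, did not exceed 0.05.

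In the mitochondrial pathway of apoptosis, BH3-only proteins bind the anti-apoptotic members of the BCL2 family and release BAX and BAK1, which permeabilise the mitochondria and set free cytochrome c. In the extrinsic pathway, a ligand of a death receptor such as FAS recruits FADD and caspase 8, and Bbc3, Bax, Fas and Cdkn1a are known to be induced by DNA damage. In the juvenile testis, an early wave of germ cell apoptosis accompanies the first wave and is known to depend on the balance between BAX and the BCL2-like inhibitors, and BCL2L2 is known to be needed for the survival of Sertoli cells and germ cells in the adult mouse.

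The tissue changed in composition over the same series. Libraries listed 12520 to 13563 genes above 0. A rough relative depth, read from the most frequent ratio of low values to those of a reference library, ranged from 0.818 to 1.49. The lowest of these, in the third 36.5 dpp replicate, rested on 4 genes. The summed FPKM of 6 Sertoli cell markers lay between 505 and 706 at 8.5 dpp and between 74.8 and 83.2 at 53.5 dpp, and was between 696 and 1057 in all cultured libraries. The sum of 5 spermatid markers rose from a mean of 5.77 FPKM at 8.5 dpp to 19568 at 53.5 dpp and stayed at 8.30 or below in every cultured library, where up to 3 of the 5 genes were at 0. That of 5 spermatocyte markers was 16.6 at 8.5 dpp, 1917 at 36.5 dpp and 33.8 at D28. Germ cell markers were present in every group, with a Ddx4 level of 3.76 FPKM at 8.5 dpp, 74.2 at 36.5 dpp and 5.82 at D28, and a Dazl level of 21.2, 75.5 and 60.1 FPKM in the same groups. The sum of 3 endothelial markers was 44.0 FPKM at 8.5 dpp, 2.87 at 36.5 dpp and 1.52 at 53.5 dpp, and between 56.8 and 69.0 on average at the culture times. In whole tissue, fewer cells of a type and less RNA per cell cannot be told apart, and the part of these shifts in the results below was not tested.

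Promoter windows of 6 of the 9 genes were read from RefSeq (build GRCr8) and are limited here to the 250 bases before the annotated start. Sequences are shown for Bcl2l1, the 1 gene of the 9 called higher at 53.5 than at 8.5 dpp in the values as deposited, and for Bcl2 and Bcl2l2, the other inhibitors among the 9, which were called lower. The windows lie on the minus strand at chr3:161764776-161765025 (Bcl2l1, the farthest upstream of 4 annotated starts) and chr13:23366901-23367150 (Bcl2), and on the plus strand at chr15:32326511-32326760 (Bcl2l2). Capitals mark any match, on either strand, to the TATA box (TATAAA), the CCAAT box, the GC box (GGGCGG), the cAMP response element (TGACGTCA) or the E box (CACGTG).

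Bcl2l1: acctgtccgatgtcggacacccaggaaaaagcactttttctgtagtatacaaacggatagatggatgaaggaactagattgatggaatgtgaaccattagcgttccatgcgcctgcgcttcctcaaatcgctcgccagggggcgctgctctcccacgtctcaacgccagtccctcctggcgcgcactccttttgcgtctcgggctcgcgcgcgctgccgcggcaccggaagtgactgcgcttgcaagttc

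Bcl2: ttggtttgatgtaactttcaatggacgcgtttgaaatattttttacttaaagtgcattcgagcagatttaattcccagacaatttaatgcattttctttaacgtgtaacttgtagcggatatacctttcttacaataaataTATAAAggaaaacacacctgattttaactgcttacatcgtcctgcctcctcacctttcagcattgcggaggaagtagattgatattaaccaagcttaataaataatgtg

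Bcl2l2: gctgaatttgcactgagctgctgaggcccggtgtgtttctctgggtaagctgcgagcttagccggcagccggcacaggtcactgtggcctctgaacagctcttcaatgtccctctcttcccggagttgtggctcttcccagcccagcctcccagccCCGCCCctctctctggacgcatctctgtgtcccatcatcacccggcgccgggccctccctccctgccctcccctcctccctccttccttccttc

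The Bcl2 window held a TATAAA, found in 12.9% of the 33469 promoter windows of that length, and only 33.6% G and C bases, against 57.6% in the Bcl2l1 window shown, 64.0% in that of Bcl2l2 and a median of 51.2% over all windows. The Bcl2l2 window held the reverse complement of GGGCGG, a motif found on either strand in 30.5% of windows and also in those of Bak1 and Fas. No match was found in the Bcl2l1 window shown, while 2 other annotated starts of that gene had a CCAAT (34.0% of windows). The cAMP response element and the E box, found in 1.59% and 5.59% of all windows, were in none of the 3 windows shown. A match of letters is a description and not a site of binding.

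All 9 genes passed the filter on low values in every fit. Over the 6 in vivo ages all 9 changed by limma's F test, in a background where 96.4% of the genes tested were called. From 8.5 to 53.5 dpp, 8 of the 9 were called (87.1% of all genes), with Bcl2l1 higher and Bax, Bak1, Bcl2, Bcl2l2, Bbc3, Fas and Casp8 lower (58.3% of all genes were lower). The median difference of the 9 was -2.24 against -0.74 over all genes tested. When libraries were scaled by the median of ratios, which moved the median of all genes by 1.04 in this comparison, the 8 kept their direction and their call, while Cdkn1a, at -0.02 as deposited, was called higher at 1.11. Step by step, 5 of the 9 were called between 8.5 and 14.5 dpp (38.6% of all genes), 7 between 14.5 and 24.5 dpp (60.0%), 7 between 24.5 and 30.5 dpp (68.8%), 3 between 30.5 and 36.5 dpp (34.0%) and 1, Bcl2l2, between 36.5 and 53.5 dpp (38.4%). The counts are to be read against these backgrounds. Without the second 14.5 dpp replicate the first count was 2, without the third 24.5 dpp replicate the count between 30.5 and 36.5 dpp was 5, and without the second 8.5 dpp replicate the last was 2. Median-of-ratios scaling, which moved the median of all genes by 0.486 between 24.5 and 30.5 dpp, left 3 of the 9 called there. Shares of all genes called are not given for these alternative counts, so the percentages above do not apply to them.

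**Figure D1:**
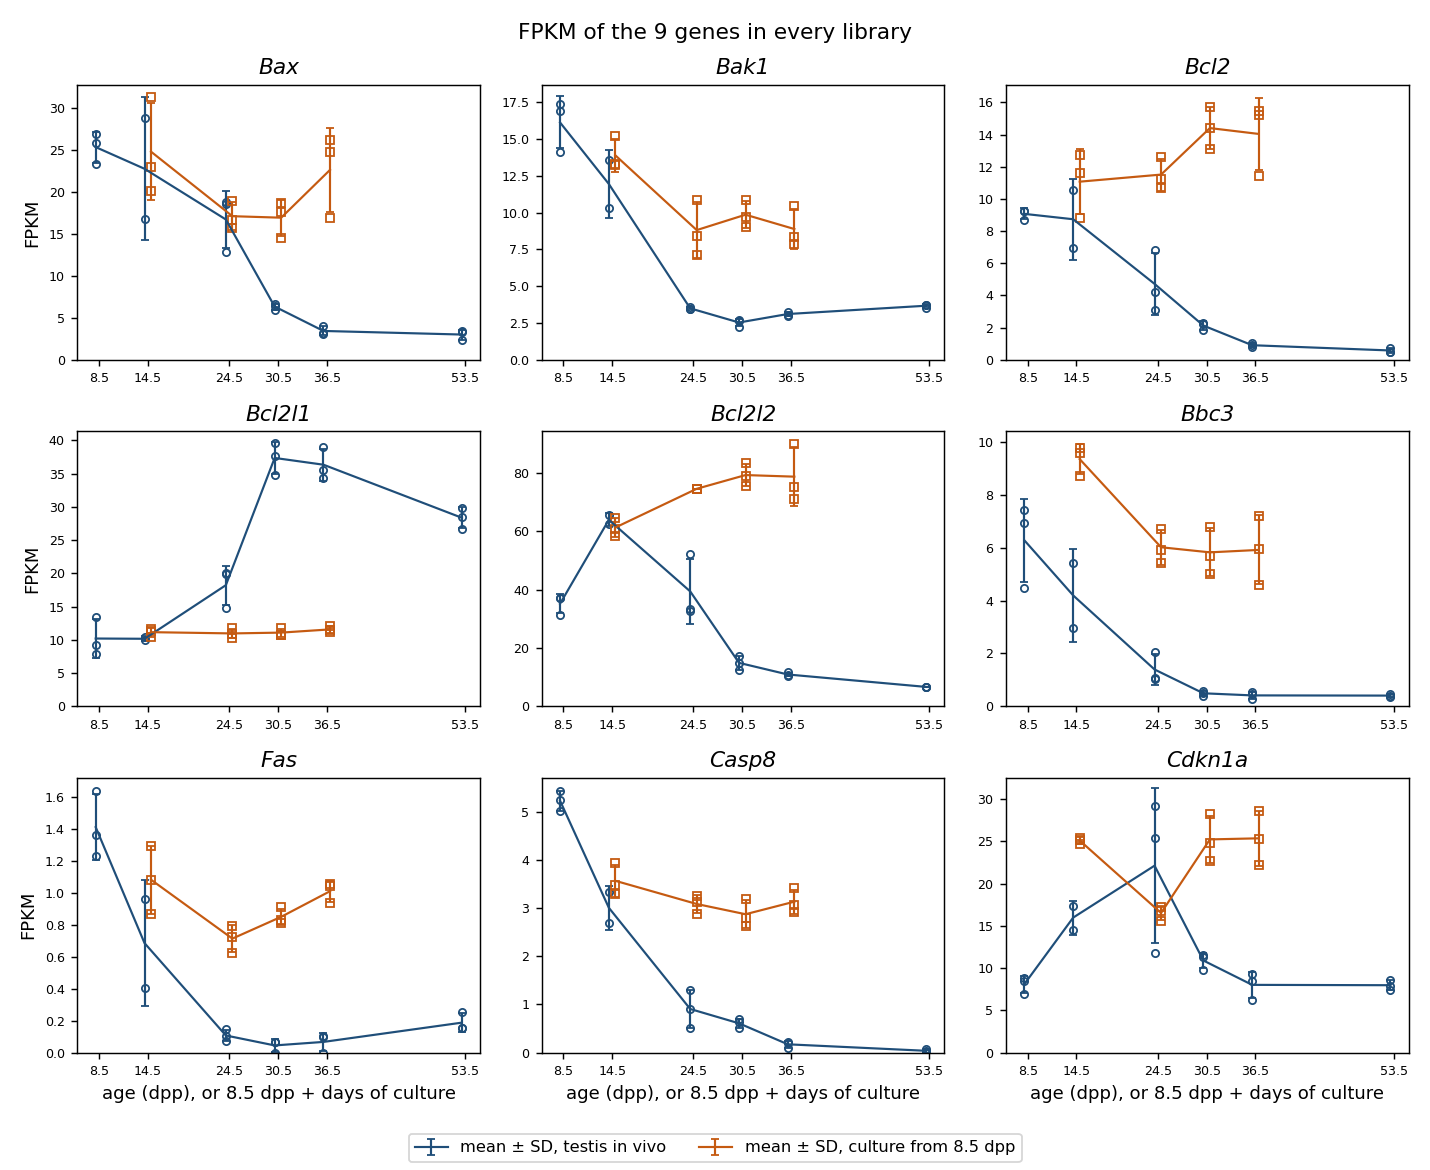
Each panel shows the FPKM of 1 gene in every library (open symbols) with the group mean ± SD (lines) against age in vivo, or 8.5 dpp plus the days of culture, with in vivo and cultured symbols shifted slightly apart. Bcl2l1 climbs from 10.2 to 37.4 FPKM in vivo and stays near 11 in culture, whereas the other genes are lower at 36.5 dpp than at D28.

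Bax, the effector that moves from the cytosol to mitochondria, fell in vivo, most between 24.5 and 30.5 dpp. Its values were 23.3, 25.9 and 27.0 FPKM at 8.5 dpp, 16.8 and 28.8 at 14.5 dpp, 18.8, 12.8 and 18.6 at 24.5 dpp, 5.98, 6.40 and 6.68 at 30.5 dpp, 4.06, 3.07 and 3.20 at 36.5 dpp, and 3.42, 2.32 and 3.29 at 53.5 dpp. The testes of 14.5 dpp overlapped those of 8.5 and of 24.5 dpp, every testis of 24.5 dpp lay below those of 8.5 dpp, and every testis of 30.5 dpp or older lay below all of them. Neither of the first 2 steps was called, although the second was -0.77 (adjusted p = 0.00913) without the first 14.5 dpp replicate, and the largest step came between 24.5 and 30.5 dpp, with a difference of -1.25 (SE 0.19, limma adjusted p = 3.61e-05). In culture, Bax measured 20.2, 31.4 and 23.0 FPKM at D6, 16.7, 15.7 and 19.0 at D16, 18.7, 14.5 and 17.7 at D22, and 26.2, 16.97 and 24.8 at D28. Every cultured library lay above all testes of 30.5 dpp or older.

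Bak1, the effector that resides on mitochondria, fell earlier than Bax. It measured 17.4, 14.1 and 16.9 FPKM at 8.5 dpp, 13.6 and 10.3 at 14.5 dpp, and 3.46, 3.46 and 3.57 at 24.5 dpp. The 3 groups did not overlap. The step from 14.5 to 24.5 dpp was -1.51 (SE 0.12, limma adjusted p = 9.11e-08), whereas that of Bax was -0.39 (SE 0.21, adjusted p = 0.116). The difference between the genes was not tested. Later testes held between 2.23 and 3.75 FPKM, and the fall of 0.35 between 24.5 and 30.5 dpp (limma adjusted p = 0.00777) turned to 0.064 under median-of-ratios scaling. In culture the values were 15.2, 13.3 and 13.2 at D6, 10.9, 8.45 and 7.14 at D16, 9.05, 10.9 and 9.69 at D22, and 10.4, 7.86 and 8.35 at D28. In the values as deposited, all D16 to D28 libraries lay below every D6 library and above every testis of 24.5 dpp or older. Under median-of-ratios scaling the mean rose from 3.07 at 24.5 dpp to 7.47 at 53.5 dpp. The latter was above the means at D16 (6.91) and D28 (7.13) and below that at D22 (7.78). The fall from D6 to D16 was 0.62 (SE 0.14, limma adjusted p = 0.00959). As a result of these courses, the mean ratio of Bax to Bak1 was 1.59 at 8.5 dpp, 4.78 at 24.5 dpp and 0.822 at 53.5 dpp, and lay between 1.74 and 2.55 in culture.

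Bcl2, the founding inhibitor of the family, fell stepwise in vivo. Its values were 8.67, 9.27 and 9.26 FPKM at 8.5 dpp, 10.5 and 6.95 at 14.5 dpp, 4.24, 3.10 and 6.81 at 24.5 dpp, 2.23, 1.84 and 2.31 at 30.5 dpp, 0.889, 1.03 and 0.795 at 36.5 dpp, and 0.751, 0.498 and 0.487 at 53.5 dpp. From 14.5 dpp on, each age lay below the one before without overlap. The 3 steps from 14.5 to 36.5 dpp were called, with differences of -0.79, -0.82 and -0.71 and limma adjusted p-values of 0.00477, 0.00141 and 0.0115. Without the first 14.5 dpp replicate the first of these was -0.53 (adjusted p = 0.0962), and the second was -0.41 (adjusted p = 0.0704) under median-of-ratios scaling. In culture, Bcl2 measured 11.6, 12.8 and 8.84 FPKM at D6, 11.2, 12.6 and 10.7 at D16, 13.1, 14.4 and 15.7 at D22, and 11.4, 15.4 and 15.2 at D28. Every library from D16 to D28 was above every testis of any age, and D28 exceeded the 8.5 dpp start by 0.57 (SE 0.13, limma adjusted p = 0.00253).

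Bcl2l1, which encodes BCL-XL, was higher in testes of 24.5 dpp and older than in younger ones. It measured 9.14, 13.5 and 7.93 FPKM at 8.5 dpp, 10.4 and 9.89 at 14.5 dpp, 19.8, 20.0 and 14.8 at 24.5 dpp, 34.9, 39.6 and 37.7 at 30.5 dpp, 34.4, 35.6 and 39.1 at 36.5 dpp, and 28.6, 26.7 and 29.9 at 53.5 dpp. The testes of 24.5 dpp lay above all younger ones and below all older ones. The steps into 24.5 and 30.5 dpp were 0.77 (SE 0.17, limma adjusted p = 0.0014) and 1.01 (SE 0.15, adjusted p = 4.8e-05). As deposited, the 53.5 dpp testes were all below those of 30.5 and 36.5 dpp, although the last step, at -0.35, had an adjusted p of 0.0896. This step was called after rescaling to the same sum (TPM), at -0.50 (limma adjusted p = 0.0146). It was also called in 1 fit of all 10 groups and without the second 8.5 dpp replicate (adjusted p = 0.0337 and 0.0330). By contrast, the mean did not fall under median-of-ratios scaling, with 56.3 for 36.5 dpp and 57.7 for 53.5 dpp, after 48.3 for 30.5 dpp. The late fall thus depended on the scaling. In culture the gene stayed between 10.2 and 12.1 FPKM, with group means of 11.1, 10.96, 11.1 and 11.6 from D6 to D28. It was the 1 gene of the 9 that was not called by the F test over 8.5 dpp and the 4 culture times (adjusted p = 0.707), where 64.5% of all genes were called. Without the second 8.5 dpp replicate, which was the highest of its group at 13.5 FPKM, that adjusted p was 0.0187.

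Bcl2l2, which encodes BCL-W, was the most abundant of the 9 at every time of culture and at 8.5, 14.5 and 24.5 dpp. Its values rose from 37.1, 37.1 and 31.3 FPKM at 8.5 dpp to 62.4 and 65.5 at 14.5 dpp, and then declined through 32.5, 33.3 and 52.4 at 24.5 dpp, 17.4, 12.3 and 14.95 at 30.5 dpp and 11.6, 10.8 and 10.2 at 36.5 dpp to 6.61, 6.64 and 6.62 at 53.5 dpp. No 2 successive ages overlapped. The rise was 0.85 (SE 0.18, limma adjusted p = 0.00183), and the steepest fall, into 30.5 dpp, was -1.33 (SE 0.16, adjusted p = 5.36e-06). The last fall of 0.64 (adjusted p = 0.0073) was 0.30 (adjusted p = 0.148) with median-of-ratios scaling. Cultured libraries measured 58.5, 64.7 and 60.8 at D6, 74.6 in each of the 3 at D16, 75.7, 83.4 and 78.9 at D22, and 70.9, 90.1 and 75.2 at D28. All were above the 8.5 dpp start, and the D28 difference from it was 1.14 (SE 0.10, limma adjusted p = 3.98e-07).

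The 3 inhibitors exchanged places in vivo. Bcl2l2 made up 64.7% ± 2.81 (SD, n = 3) of their summed FPKM at 8.5 dpp and 77.2% ± 3.31 (SD, n = 2) at 14.5 dpp, but 18.6% ± 0.89 at 53.5 dpp. Bcl2l1 went from 18.5% ± 3.50 to 12.3% ± 0.342 and 79.7% ± 0.961 at the same ages, and Bcl2 from 16.8% ± 2.00 to 10.5% ± 2.97 and 1.63% ± 0.409. In culture no such exchange was seen, with Bcl2l2 at 73.4% to 76.9% of the sum, Bcl2l1 at 10.6% to 13.4% and Bcl2 at 11.9% to 13.7% as group means. The sum itself was 82.8 FPKM at 14.5 dpp, 35.6 at 53.5 dpp and 104 at D28. It leaves out Mcl1, another anti-apoptotic gene. Mcl1 measured 143, 146 and 136 FPKM at 8.5 dpp, 19.4, 20.7 and 19.7 at 53.5 dpp, and 146, 157 and 142 at D28. Which cells carried each transcript was not measured.

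The ratio of Bax to an inhibitor depended on the inhibitor. Bax over Bcl2 was 2.80 ± 0.11 at 8.5 dpp and 5.33 ± 1.25 at 53.5 dpp, whereas Bax over Bcl2l1 was 2.62 ± 0.744 and 0.106 ± 0.0169 at the same ages (SD, n = 3), so that the 2 ratios moved in opposite directions. In the cultured groups Bax over Bcl2 went from 2.27 ± 0.461 at D6 through 1.504 ± 0.266 (D16) and 1.19 ± 0.213 (D22) to 1.67 ± 0.599 (D28). At D16 to D28 every library had a lower ratio of Bax to Bcl2 than every testis of 8.5, 24.5, 30.5, 36.5 or 53.5 dpp, and the 14.5 dpp testes, at 1.59 and 4.15, overlapped with them. Bax over Bcl2l1 at D28, 1.95 ± 0.374, was above all testes of 24.5 dpp or older, and Bax over Bcl2l2 was 0.296 ± 0.0954 at D28 against 0.315 ± 0.0337 at 36.5 dpp. Ratios of transcript levels are given as a description and were not tested.

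**Figure D2:**
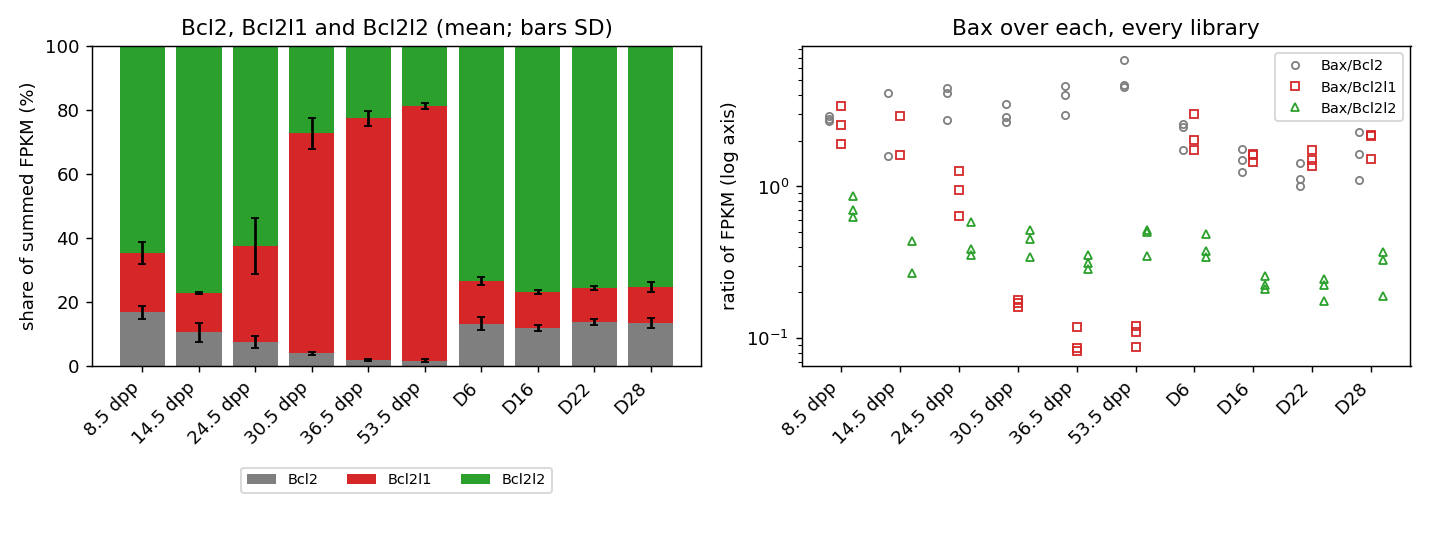
Left, mean share (%) of Bcl2, Bcl2l1 and Bcl2l2 in their summed FPKM in each of the 10 groups, where the bar at the top of each Bcl2 and Bcl2l1 segment is the SD of that gene's own share. Right, the ratio of Bax to each inhibitor in every library on a log axis. The Bcl2l1 share reaches 79.7% at 53.5 dpp and stays between 10.6% and 13.4% in culture, and Bax over Bcl2l1 falls from 2.62 at 8.5 dpp to 0.106 at 53.5 dpp while Bax over Bcl2 goes from 2.80 to 5.33.

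Bbc3, a damage-inducible gene whose BH3-only protein PUMA binds all inhibitors of the family, was low and fell in vivo. It measured 7.42, 6.94 and 4.47 FPKM at 8.5 dpp, 5.43 and 2.96 at 14.5 dpp, 1.09, 1.02 and 2.06 at 24.5 dpp, and between 0.262 and 0.571 in all older testes. The first 2 ages overlapped and the older ones lay below them. The steps into 24.5 and 30.5 dpp were -1.10 (SE 0.22, limma adjusted p = 0.000648) and -0.66 (SE 0.20, adjusted p = 0.00902). The second of these was -0.47 (adjusted p = 0.0529) without the third 24.5 dpp replicate and -0.42 (adjusted p = 0.0766) under median-of-ratios scaling. In culture the values were 9.56, 8.71 and 9.78 FPKM at D6, 6.72, 5.92 and 5.41 at D16, 5.68, 4.99 and 6.80 at D22, and 7.21, 5.94 and 4.59 at D28. D6 was thus the highest of the 10 groups, above every other library of the series, and the later culture times returned into the range of the 8.5 dpp testes. The rise from 8.5 dpp to D6 was 0.53 (SE 0.17, limma adjusted p = 0.0204) and the fall from D6 to D16 was 0.56 (SE 0.17, adjusted p = 0.0362). The rise was not called without the third 8.5 dpp replicate (0.34, adjusted p = 0.0981) or without D6 replicate 1 or 3 (adjusted p = 0.0545 and 0.0555), nor under median-of-ratios scaling (0.40, adjusted p = 0.0641), and the fall was lost, at adjusted p-values of 0.0538 to 0.12, without any of the 3 D6 replicates or D16 replicates 2 and 3 in turn.

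Fas, the receptor of FAS ligand, was the least abundant of the 9 in all groups except 53.5 dpp, where Casp8 was lower. Its level was 1.23, 1.36 and 1.64 FPKM at 8.5 dpp, 0.964 and 0.407 at 14.5 dpp, 0.0737, 0.103 and 0.146 at 24.5 dpp, and 0.256 or less in older testes, with 1 library of 30.5 dpp and 1 of 36.5 dpp listed at 0. Values of this size rest on few reads, and on the log2(FPKM + 1) scale their changes are understated. In culture the gene stayed near its juvenile level, at 1.295, 0.868 and 1.08 FPKM at D6, 0.791, 0.624 and 0.725 at D16, 0.908, 0.814 and 0.827 at D22, and 1.05, 0.933 and 1.04 at D28. All 12 cultured libraries were above every testis of 24.5 dpp or older. Below the 8.5 dpp start, D28 differed by -0.26 (SE 0.09, limma adjusted p = 0.0207), which was lost without the third 8.5 dpp replicate (-0.19, adjusted p = 0.0939) or the second D28 replicate (-0.23, adjusted p = 0.0615). The fall from D6 to D16, of 0.28 (adjusted p = 0.0424), did not pass in 14 of the alternatives tried, among them the removal of any D6 or D16 replicate except the second of D6.

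Casp8, the caspase recruited to the FAS receptor, almost vanished in vivo. The values were 5.24, 5.42 and 5.02 FPKM at 8.5 dpp, 3.33 and 2.68 at 14.5 dpp, 0.897, 0.517 and 1.303 at 24.5 dpp, 0.695, 0.502 and 0.627 at 30.5 dpp, 0.210, 0.221 and 0.0869 at 36.5 dpp, and 0.0434, 0 and 0.0711 at 53.5 dpp. Only 24.5 and 30.5 dpp overlapped among successive ages. The difference between 53.5 and 8.5 dpp was -2.58 (SE 0.13, limma adjusted p = 5.26e-11). Cultured tissues kept 3.47, 3.94 and 3.28 FPKM at D6, 3.25, 2.88 and 3.12 at D16, 3.19, 2.80 and 2.63 at D22, and 3.41, 2.92 and 3.07 at D28. Each cultured library was below all 8.5 dpp testes and above all testes of 24.5 dpp or older, and 11 of the 12 lay within or above the range of the 14.5 dpp testes. The fall from 8.5 dpp to D6 was 0.45 (SE 0.08, limma adjusted p = 0.000519), and no later step in culture was called. In the RefSeq annotation used here, the Casp8 locus overlaps that of Cflar, which encodes the caspase 8 inhibitor c-FLIP, and how reads were shared between them is not stated. Cflar had a similar course, with means of 5.41 FPKM at 8.5 dpp, 0.375 at 53.5 dpp and 4.33 at D28.

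Cdkn1a rose and fell in vivo, and in culture it was higher at D6, D22 and D28 than at D16. It measured 8.86, 6.96 and 8.51 FPKM at 8.5 dpp, 17.4 and 14.6 at 14.5 dpp, 29.2, 25.4 and 11.8 at 24.5 dpp, 11.6, 9.84 and 11.3 at 30.5 dpp, 8.51, 9.28 and 6.27 at 36.5 dpp, and 8.62, 7.88 and 7.45 at 53.5 dpp. The third 24.5 dpp testis stood apart from the other two of its group. The rise to 14.5 dpp was 0.90 (SE 0.27, limma adjusted p = 0.0172), and it was not called without the second 8.5 dpp replicate or either 14.5 dpp replicate (adjusted p-values of 0.0567, 0.104 and 0.0563) or under median-of-ratios scaling (0.74, adjusted p = 0.0588). The rise from 14.5 to 24.5 dpp, at 0.36 (adjusted p = 0.276), was 0.74 (adjusted p = 0.00166) without the third 24.5 dpp replicate. The following fall of 0.87 (adjusted p = 0.00551) was 0.35 (adjusted p = 0.255) under median-of-ratios scaling. In culture the values were 25.2, 24.7 and 25.4 FPKM at D6, 17.2, 16.8 and 15.6 at D16, 24.8, 22.7 and 28.2 at D22, and 28.7, 25.3 and 22.2 at D28. All D16 libraries lay below all other cultured ones. D6 and D28 each exceeded 8.5 dpp by 1.53 (SE 0.11 for both, limma adjusted p = 2.63e-07 and 9.45e-08), which were the largest differences of the 9 genes from the start of culture. Between them, the level fell by 0.58 from D6 to D16 (SE 0.11, adjusted p = 0.00357) and rose by 0.58 from D16 to D28 (SE 0.11, adjusted p = 0.0139). This rise was at the threshold without D16 replicate 1 or 3 (adjusted p = 0.0525 and 0.0501), and both steps missed it in 1 fit of all 10 groups (adjusted p = 0.0639 and 0.12).

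To ask how cultured tissue differed from testes of the same age, each culture time was compared with its in vivo counterpart. At D6 against 14.5 dpp, 2 of the 9 genes were called, both higher in culture (15.5% of all genes were called, 9.13% as higher). They were Bbc3, by 1.04 (SE 0.22, limma adjusted p = 0.03), and Cdkn1a, by 0.63 (SE 0.13, adjusted p = 0.0285), and for both the D6 libraries lay above both 14.5 dpp testes. Neither was called when the second 14.5 dpp replicate or any D6 replicate was left out (adjusted p-values from 0.0590 to 0.105). At D16 against 24.5 dpp, 7 of the 9 were called (72.4% of all genes, 40.5% as higher), Bcl2l1 lower and Bak1, Bcl2, Bcl2l2, Bbc3, Fas and Casp8 higher. Bax did not differ in this comparison beyond its error (0.05, SE 0.16), nor did Cdkn1a (-0.31, SE 0.31), which without the third 24.5 dpp replicate was lower in culture by 0.69 (adjusted p = 0.00127).

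At D22 against 30.5 dpp and at D28 against 36.5 dpp, each of the 9 genes passed, 8 of them higher in culture and Bcl2l1 lower. Of all genes, 84.9% and 86.2% were called, 54.2% and 56.4% as higher. The groups of each of the 9 were apart in both comparisons, but the share of all genes with groups apart was not counted. At D28 the median difference of the 9 was 1.82 against 0.645 over all genes. The mean FPKM at D28 was 18.1 times that at 36.5 dpp for Casp8, 15.5 times for Bcl2, 15.1 times for Fas and 14.4 times for Bbc3. It was 7.24 times for Bcl2l2, 6.58 times for Bax, 3.16 times for Cdkn1a, 2.86 times for Bak1 and 0.318 times for Bcl2l1. The ratios of Casp8 and Fas rest on means of 0.173 and 0.0671 FPKM at 36.5 dpp. On the log2(FPKM + 1) scale, where changes at low levels are understated, the differences were 2.97 (SE 0.14) for Bcl2, 2.74 (SE 0.12) for Bcl2l2, 2.40 (SE 0.18) for Bax and 2.28 (SE 0.16) for Bbc3. They were 1.82 (SE 0.10) for Casp8, 1.56 (SE 0.16) for Cdkn1a, 1.26 (SE 0.12) for Bak1, 0.91 (SE 0.10) for Fas and -1.57 (SE 0.10) for Bcl2l1. Limma adjusted p-values were at most 5.81e-05 for all 9. Under median-of-ratios scaling, which moved the median of all genes by -0.81 here, the same 9 calls and directions were obtained, with Bak1 at 0.48, Cdkn1a at 0.68 and Bcl2l1 at -2.48. The share of all genes called under this scaling is not given. Sertoli cell markers were higher and spermatid markers lower in the same comparison, by medians of 3.09 and -9.42.

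**Figure D3:**
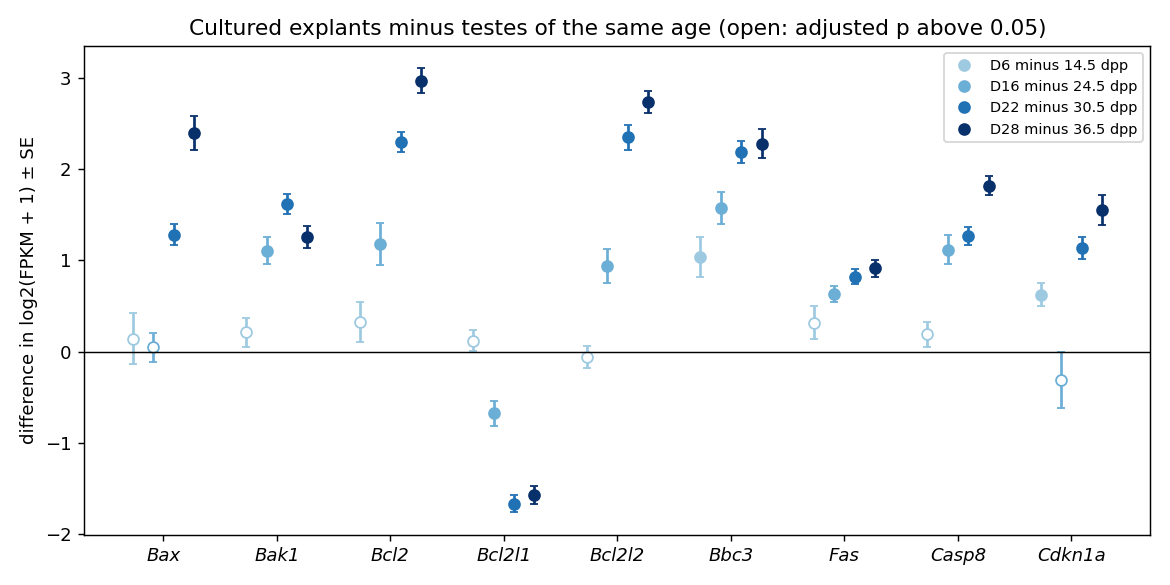
Difference in log2(FPKM + 1) between cultured explants and testes of the same age for each gene, with limma's SE, from D6 (light) to D28 (dark). Open symbols have an adjusted p above 0.05. The 9 genes lie near 0 at D6 except Bbc3 (1.04) and Cdkn1a (0.63), and by D28 only Bcl2l1 is below 0, at -1.57.

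The cultured tissues were also compared with the immature 14.5 dpp testes, in a fit that left out D6. None of the 9 genes was called at D16 by limma (33.5% of all genes), and 1, Bak1, had an unadjusted p under 0.05. In 1 fit of all 10 groups the count was 1, again Bak1, at -0.41 (adjusted p = 0.0266). At D22 and at D28, 2 of the 9 were called (36.3% and 41.1% of all genes), Bcl2 and Cdkn1a, both higher in culture. The difference of Bcl2 was 0.68 (SE 0.18, adjusted p = 0.014) at D22 and 0.64 (SE 0.18, adjusted p = 0.0165) at D28, and that of Cdkn1a was 0.63 at both times (SE 0.13, adjusted p = 0.00574 and 0.00487). For Bcl2 the calls were lost without the second 14.5 dpp replicate (0.42 and 0.37, adjusted p = 0.118 and 0.148), and that of D28 without the third D28 replicate (adjusted p = 0.0509). The F test over the 4 groups called the same pair (33.6% of all genes), Bcl2 at an adjusted p of 0.0412 and Cdkn1a at 0.00465. The F test call of Bcl2 was lost, at adjusted p-values of 0.0516 to 0.166, with a pseudocount of 0.1, without a filter, with TPM, with the replicate block (0.0997), and without the second 14.5 dpp replicate, any D16 or D22 replicate, or D28 replicate 2 or 3. Leaving out the other 14.5 dpp testis, the first replicate, raised the counts to 2, 5 and 4 genes at D16, D22 and D28, so that each count rested on which of the 2 testes was used. Over the 3 times, the differences that missed the threshold lay between -0.41 and 0.47, with standard errors of up to 0.24 (Bax).

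Explants started at 8.5 dpp, so this age served as the start of the culture course. Between 8.5 dpp and D6, 4 genes were called (48.2% of all genes), with Bcl2l2, Bbc3 and Cdkn1a higher and Casp8 lower. From D6 to D16, 4 were called (18.5%, 9.81% as lower), with Bak1, Bbc3, Fas and Cdkn1a all lower, and from D16 to D28 only Cdkn1a was (3.79%). The second count was 2 without the third D6 replicate or without D16 replicate 2 or 3, and the last was 0 without D16 replicate 1 or 3 and 2 without the second D28 replicate. Over the whole course, 6 genes differed between D28 and 8.5 dpp (59.7% of all genes), with Bcl2, Bcl2l2 and Cdkn1a higher and Bak1, Fas and Casp8 lower. Bak1 was lower by 0.80 (SE 0.14, limma adjusted p = 0.000292) and Casp8 by 0.59 (SE 0.08, adjusted p = 3.41e-05). Differences of Bax (-0.18, SE 0.17), Bcl2l1 (0.20, SE 0.14) and Bbc3 (-0.07, SE 0.17) were within 2 standard errors, although that of Bcl2l1 was 0.40 (adjusted p = 0.00274) without the second 8.5 dpp replicate. In the same comparison the Leydig cell markers were lower in 5 of 6 genes and the peritubular markers in 4 of 4, while 4 of 6 Sertoli cell markers were higher. After rescaling to the same sum (TPM), 4 of the 6 Sertoli cell markers were called higher and 2 lower. Germ cell (2 of 2) and spermatocyte (4 of 4) markers were called higher with that scaling. Shares of all genes called in each direction are not given.

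Whether the change between D6 and D28 differed from that between 14.5 and 36.5 dpp was tested as an interaction. All 9 genes were called, 8 with a higher value in culture, where 76.5% of all genes tested were called and 50.9% were higher. In vivo, 8 of them changed by -0.64 (Fas) to -2.45 (Bcl2l2) over this span and Bcl2l1 by 1.74, whereas in culture the changes lay between -0.60 (Bbc3 and Bak1) and 0.35 (Bcl2l2). The largest differences between the courses were 2.80 (SE 0.16) for Bcl2l2, 2.65 (SE 0.26) for Bcl2 and 2.25 (SE 0.35) for Bax, and that of Bcl2l1 was -1.69 (SE 0.13), with limma adjusted p-values of 1.06e-07, 7.53e-06, 0.000198 and 1.05e-06. Calls for Bak1, Fas and Cdkn1a were lost when libraries were scaled by the median of ratios (0.25, 0.44 and 0.04, adjusted p = 0.292, 0.0582 and 0.867), those for Bak1 and Cdkn1a also under quantile normalisation (0.51 and 0.45, adjusted p = 0.0518 and 0.0647), and that for Fas also without the first 14.5 dpp replicate (0.35, adjusted p = 0.084).

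**Figure D4:**
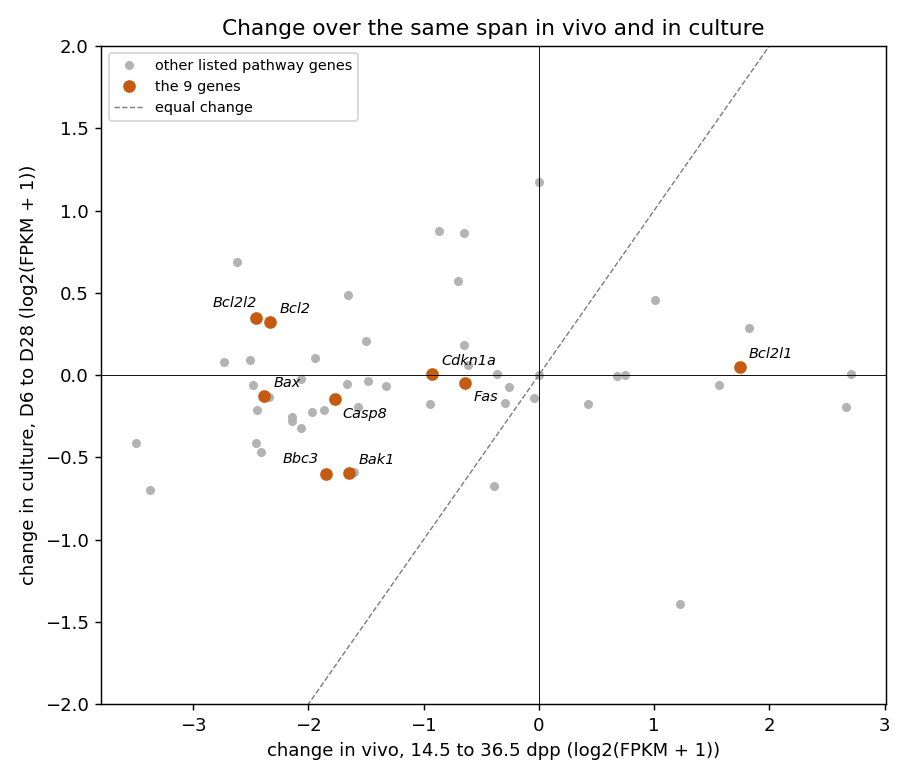
Change in log2(FPKM + 1) from D6 to D28 in culture (vertical axis) against the change from 14.5 to 36.5 dpp in vivo (horizontal axis) for the 9 genes (orange) and the other listed pathway genes (grey). Genes that passed no filter and were not tested are drawn too. Among them are Pmaip1, at 1.17 in culture from D28 replicate 3 alone, and Casp6, at 0 on both axes. The dashed line marks equal change. The 9 genes span -2.45 to 1.74 in vivo and -0.60 to 0.35 in culture.

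The remaining genes of the pathway were described from lists of BCL2 family, BH3-only, death receptor, caspase, inhibitor of apoptosis (IAP), DNA damage response and CDK inhibitor genes. Of these, Casp6 is listed at 0 in all libraries, and Eda2r and Cdkn2d were not analysed here. From 8.5 to 53.5 dpp, 39 of the 43 genes tested were called (87.1% of all genes), 32 lower (58.3% of all genes) and 7 higher, with a median of -1.57 against -0.74 over all genes. Under median-of-ratios scaling 34 of 42 were called, 24 lower and 10 higher, and the median over all genes was 0.11. Shares of all genes are not given under this scaling, so the percentages above do not apply to these counts. The caspases and the apoptosome fell in 5 of 6 genes, including Casp2 (-3.26, SE 0.16), and the other, Diablo, which encodes the IAP antagonist SMAC, rose by 2.77 (SE 0.13). All 6 BH3-only genes tested fell, among them Bmf (-4.39, SE 0.18) and Bid (-3.68, SE 0.17), as did 7 of 8 death receptor genes, led by the adaptor gene Fadd (-3.17) and the TNF receptor gene Tnfrsf1a (-2.81). Of the 10 damage response genes tested, 6 fell, among them Phlda3 by 3.90 (SE 0.25) and Ccng1, which encodes cyclin G1, by 2.10 (SE 0.09), and 3 rose, namely Mdm2 by 1.89 (SE 0.11), Perp by 0.71 (SE 0.15) and Tp73 by 0.38 (SE 0.10). Under median-of-ratios scaling 5 of these genes were lower and 4 higher, again without a share of all genes. The anti-apoptotic gene Mcl1, the effector-like gene Bok and the IAP gene Xiap fell by 2.76, 3.40 and 3.20. Against this trend Birc3, another IAP gene, rose by 2.33 (SE 0.17) and Cdkn2b, a CDK inhibitor gene, by 2.28 (SE 0.14). Limma adjusted p-values were 0.000495 for Perp and 0.00324 for Tp73 and at most 3.56e-09 for the other genes named for this comparison. Each kept its direction and its call under TPM, median-of-ratios and quantile scaling.

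In D28 explants against 36.5 dpp, 40 of 42 listed genes passed (86.2% of all genes), of which 30 were higher in culture (56.4% of all genes) and 10 lower, with a median of 1.59 against 0.64 over all genes. Under median-of-ratios scaling 38 passed, with a median of 0.83 against -0.08 over all genes. The share of all genes called under this scaling is not given, so the percentages above do not apply to that count. The BH3-only gene Bik was higher by 3.90 (SE 0.15), Bok, a relative of Bax and Bak1, by 3.65 (SE 0.10), Tnfrsf1a by 3.37 (SE 0.20), and the damage-inducible genes Gadd45a by 3.26 (SE 0.17) and Phlda3 by 2.76 (SE 0.18). Of the 10 damage response genes, 7 were higher and 3 lower, namely Mdm2 by 1.74 (SE 0.12), Tp73 by 0.67 (SE 0.11) and Perp by 0.54 (SE 0.12). Lower in culture were Diablo by 3.20 (SE 0.14), the CDK inhibitor gene Cdkn2c by 3.23 (SE 0.12) and Birc3 by 1.92 (SE 0.12). Birc3 and Cdkn2b were thus, like Bcl2l1, higher in older than in 8.5 dpp testes and lower at D28 than at 36.5 dpp, and Diablo stood at 35.2 FPKM at 8.5 dpp, 340 at 36.5 dpp and 36.3 at D28.

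Against 14.5 dpp, where 2 of the 9 genes were called, 25 of 41 listed genes were called at D28 (41.1% of all genes), 12 higher and 13 lower, with a median of -0.02 against -0.08 over all genes. Bik was higher by 2.24 (SE 0.22, limma adjusted p = 9.54e-05), and the stress-responsive genes Sesn2 and Gadd45a by 1.62 and 1.32 (adjusted p = 0.00133 and 5.34e-05). The BH3-only gene Hrk was higher by 1.196 (adjusted p = 0.00363), Bcl2a1 by 1.46 and Tnfrsf1a by 1.22. Cdkn2c, Casp2, Cdkn1c and Birc5 (survivin, which also acts in mitosis) were lower by 2.00, 1.13, 1.10 and 1.003. Compared with the 8.5 dpp start, 25 of 40 listed genes were called, 14 higher and 11 lower, where 59.7% of all genes were called. Sesn2 was higher by 2.65 (SE 0.14) and Gadd45a by 2.00 (SE 0.08), reaching 45.6 and 64.2 FPKM at D28. Bik (1.94), Hrk (1.71), Bcl2a1 (1.57), Cdkn2b (1.40) and Tnfsf10 (0.78), the last from the death receptor list, were also higher. The largest difference was that of Cdkn2c, which was lower (-2.83), as were Birc5 (-1.55) and Casp2 (-1.30).

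**Figure D5:**
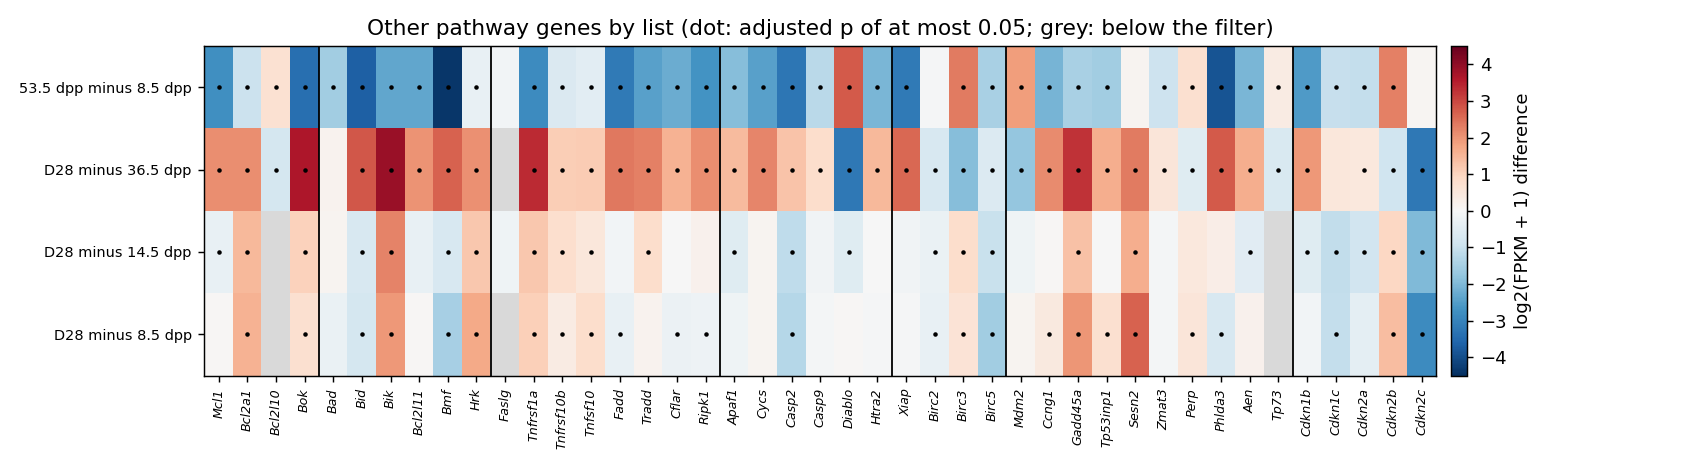
Differences in log2(FPKM + 1) of the other pathway genes in 4 comparisons, ordered by list (lines part the lists: BCL2 family, BH3-only, death receptor, caspases, IAP, DNA damage response, CDK inhibitors). Dots mark an adjusted p of at most 0.05 and grey cells were below the filter. Most genes are lower at 53.5 than at 8.5 dpp (32 of 43) and higher at D28 than at 36.5 dpp (30 of 42).

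For each of the 9 genes, the genes most alike over the 10 group means of log2(FPKM + 1) were found among 12762 genes by Pearson correlation, given as a description without a test. The closest to Bcl2l2 was Pard6b (r = 0.9996) and to Casp8 Ramp2 (r = 0.998), and among those closest to Bcl2 was Idua (r = 0.997), each with the same pattern of loss in vivo and retention in culture. Bcl2l1 was closest to Zfp707 (r = 0.997), Gcnt3 and Cldn18, and Bbc3 to Sox18 (r = 0.994), Evc2 and Nhsl3. Bax was nearest to Rrs1 (r = 0.993), Bak1 to Actb (r = 0.987) and Fas to Tsku (r = 0.989). Among those closest to Cdkn1a was RGD1563049 (r = 0.957). The 10 points share the same libraries and the same change in cell composition.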

How the data were processed

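Testis and explant RNA was sequenced as single 50-base reads from stranded libraries of polyadenylated RNA. According to the study's methods and the submitters' processing notes, the authors aligned reads to the rat genome rn6 with STAR 2.5.2a against the RefSeq annotation and quantified transcripts with StringTie and Ballgown. Whether counting used strand is not given in the sources used here. The deposited values are FPKM per Entrez gene, 17322 genes in 30 columns, of which 1, labelled an outlier, is 0 throughout and was not used. No counts were used, so the depth in reads is unknown and no counting error can be given.

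Genes were kept in a fit where 1 of its groups had a median of at least 0.5 FPKM, and log2(FPKM + 1) was tested with limma 3.58.1 in R 4.3.3, with Benjamini-Hochberg adjustment over all genes kept. Fits covered the 6 in vivo ages, D16 to D28 with 14.5 dpp, each culture time with its age, 8.5 dpp with the 4 culture times, and the interaction of 4 groups. Each kind of fit was tested on simulated data. Tables were handled with Python 3.11.15, numpy 2.4.6 and pandas 2.3.3, and figures drawn with matplotlib 3.10.9. A promoter match was counted on either strand of a RefSeq window (GRCr8), which is not the build of the reads.

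The alternatives were a further limit of 2-fold between medians, a pseudocount of 0.1, no filter or a median of at least 1 FPKM, rescaling to the same sum (TPM), median-of-ratios scaling, quantile normalisation, a trended robust prior, 1 fit of all 10 groups, a replicate block and leaving out each library. Members, gene lists and tests were chosen with earlier results of these data known. All 9 members are named, and other pathway genes by the rule of the 2 largest differences per list among those called with a 2-fold ratio of medians. Some listed or most alike genes are not reported here. Cflar, Diablo at 8.5 dpp, the levels of Mcl1, and Mdm2, Perp and Tp73 were given after their values were seen. No pair of libraries held identical values. P-values measure the spread between these samples only, which for pooled explants may be partly technical.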

Additional observations from a re-analysis of the deposited data

Results flagged for a closer look

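The change from D6 to D28 in culture differed from that between 14.5 and 36.5 dpp in vivo for each of the 9 genes, by the interaction tested with limma. On the log2(FPKM + 1) scale, the change in culture minus the change in vivo was 2.25 for Bax, 1.05 for Bak1, 2.65 for Bcl2, -1.69 for Bcl2l1, 2.80 for Bcl2l2, 1.25 for Bbc3, 0.59 for Fas, 1.63 for Casp8 and 0.93 for Cdkn1a. The largest adjusted p was 0.0175 (Fas). Background calls made up 76.5% of the genes tested, so a difference between the 2 courses was the usual result here. With libraries scaled by the median of ratios, Bak1, Fas and Cdkn1a were not called, at 0.25, 0.44 and 0.04, nor were Bak1 and Cdkn1a under quantile normalisation, at 0.51 and 0.45.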

How the results depend on the processing

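Over the values of the 9 genes under every alternative, 3995 kept their side of the threshold, 90 lost the call, 59 gained one and 3 reversed. A value counted as reversed only where its direction changed and it was called in the fit described above or in the alternative. Changes of direction among values not called were left among those that kept their side, as were F tests, which have no direction. The reversals were Bak1 between 24.5 and 30.5 dpp under median-of-ratios scaling (0.064) and Cdkn1a between 8.5 and 53.5 dpp under median-of-ratios (1.11) and quantile scaling (0.74). The further 2-fold limit, which is stricter by construction, gave counts of 0 (8.5 to 14.5 dpp), 4 (24.5 to 30.5 dpp), 0 (36.5 to 53.5 dpp), 0 (D22 and D28 against 14.5 dpp, and the F test over these times), 1 (D6 against 14.5 dpp), 1 (D6 against 8.5 dpp), 0 (D6 to D16), 0 (D16 to D28), 3 (D28 against 8.5 dpp) and 3 (F test along the culture). Median-of-ratios scaling gave 3 between 24.5 and 30.5 dpp. Between 36.5 and 53.5 dpp the count was 2 with a pseudocount of 0.1, TPM or 1 fit of all groups, and that fit gave 1 for D16 against 14.5 dpp, 2 from D6 to D16 and 0 from D16 to D28. The F test with 14.5 dpp gave 1 with a pseudocount of 0.1, TPM, no filter or the replicate block, and D6 against 14.5 dpp gave 1 without a filter. For the other moves the cause was not tested. Shares of all genes called are not given for these counts or for those with a library left out.

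Leaving out each library in turn, the counts ranged from 2 to 6 (8.5 to 14.5 dpp), 7 to 8 (14.5 to 24.5 dpp), 6 to 8 (24.5 to 30.5 dpp), 2 to 5 (30.5 to 36.5 dpp), 1 to 2 (36.5 to 53.5 dpp), 0 to 2, 1 to 5 and 1 to 4 (D16, D22 and D28 against 14.5 dpp), 1 to 3 (their F test), 0 to 2 (D6 against 14.5 dpp), 7 to 8 (D16 against 24.5 dpp), 3 to 5 (D6 against 8.5 dpp), 2 to 6 (D6 to D16), 0 to 2 (D16 to D28), 5 to 7 (D28 against 8.5 dpp), 7 to 8 (F test along the culture) and 8 to 9 (interaction). The F test with 14.5 dpp fell to 1 without the second 14.5 dpp replicate, any D16 or D22 replicate, or D28 replicate 2 or 3. Where 14.5 dpp was left with 1 library, that library was assumed to vary like the other groups.

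Replicate numbers were not treated as pairs, since correlations of deviations between same-numbered cultured libraries lay between -0.131 and 0.218. With the replicate block, D6 against 14.5 dpp had 0 genes called (Bbc3 1.01, adjusted p = 0.0766, and Cdkn1a 0.62, adjusted p = 0.107) against 2 without it, over all genes 380 against 1755. Fas and Casp8 near 0 FPKM and the 2 testes of 14.5 dpp set the limits of these data.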

Other observations

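Among the listed pathway genes outside the comparisons, Pmaip1, which encodes the BH3-only protein NOXA, was listed at 0 in every library except D28 replicate 3, at 10.5 FPKM, so that its D28 mean was 3.49 FPKM ± 6.04 (SD, n = 3). It passed the filter in no fit and was not tested.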
